A study of Mus musculus with 6 samples.

Results

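The genes described here encode, for the most part, the machinery that starts transcription by RNA polymerase II. They are the core subunits of Mediator, the general factors TFIIA, TFIIB, TFIIE, TFIIF and TFIIH, the TBP-associated factors (TAFs) and the subunits of the polymerase itself. They were chosen by gene symbol alone, taking every symbol that begins with Med and a digit (without Med12, Med12l, Med13 and Med13l, which belong to the kinase module), Gtf2 followed by a, b, e, f or h, Polr2, or Taf and a digit. The platform annotation holds 70 such genes among 19057 with a probe of their own, and they have 132 of the 45281 probes. Of the 70 genes, 26 belong to core Mediator, 9 to polymerase II and 12 to the general factors, and 23 are TAFs. By their symbols the TAFs include genes of other complexes, such as Taf1a, Taf1c and Taf1d of a polymerase I factor. Taf5l and Taf6l of the coactivator SAGA are others, and all of them count in the totals below.

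All 6 arrays hold RNA of Wehi-231, a B cell lymphoma line from (BALB/c x NZB)F1 mice, kept in DMEM with bovine serum. The 3 arrays labelled shTFII-I came from cells with a short hairpin RNA named for TFII-I, the product of Gtf2i, and the 3 labelled shCT from cells with a control hairpin. The sources used here do not give the hairpin sequences, how they were delivered, or whether a line was 1 clone. Separate cultures for the replicates are not stated either, and p-values then measure only the spread between these arrays, which may be technical. The series title concerns the targeting of CTCF, an insulator protein, to promoters by TFII-I, and the arrays compare transcripts between cells with either hairpin.

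RNA polymerase II cannot find a promoter alone. TFIID, made of TBP and TAFs, recognises core promoter DNA and TFIIA and TFIIB hold it there. TFIIF brings in the polymerase, and TFIIE and TFIIH, which contains a helicase and a kinase, open the DNA and phosphorylate the polymerase tail. Mediator bridges activators bound at enhancers to this assembly: its tail meets activators, and its head and middle modules touch the polymerase. TFII-I shares its naming with these factors, but it is a sequence-specific protein known to bind initiator and E-box elements.

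The deposited values are log2 bead intensities that share 1 distribution over the 6 arrays. A background level of 6.61 was estimated from them, and 28.1% of probes lay above it on each array. The named Gtf2i probe was below that level on all 6 arrays, at 6.40, 6.53 and 6.44 in shTFII-I and 6.47, 6.56 and 6.41 in shCT, and it gives no check of the knockdown. Of the B cell markers, 6 of 9 had a probe, and 5 passed the filter, with Ms4a1 the exception. Cd79b averaged 11.42 ± 0.18 in shTFII-I and 10.68 ± 1.01 in shCT (SD, n = 3 each), with overlapping groups, and Cd74 averaged 10.40 ± 0.30 in shTFII-I and 9.68 ± 0.43 in shCT, without overlap. Cd22, Ebf1 and Pax5 differed by -0.0068, -0.06 and 0.06 on the log2 scale, and the median of the 5 was 0.06. The summed linear intensity of these 6 markers ran from 4430 to 4826 in shTFII-I and from 2215 to 3896 in shCT arrays. That sum is weighted towards Cd79b and Cd74, its brightest markers, and the part of its difference in the results below was not tested. All 5 measured T cell markers, among them Cd3e, and all 5 fibroblast markers averaged under the background level in both groups. Myeloid markers reached at most 6.61 in the mean and erythroid markers at most 6.60, in either group. Of these, Csf1r and Klf1 passed the filter as well. Pax5, among the B cell markers that passed, averaged 6.64 in shTFII-I and 6.58 in shCT, likewise close to background. In such bulk RNA, fewer cells of a type and less RNA per cell cannot be told apart. Across genes, which are not independent replicates, Pearson r between arrays ran from 0.939 to 0.978 between groups and from 0.939 to 0.969 within them.

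Promoter windows of the genes were compared first, because the series concerns factors at promoters. RefSeq windows of build GRCm38.p6, from 250 bases before to 50 after an annotated start, were found for 60 of the 70 genes, 75 windows in all. Both strands were searched for the TATA box as TATAAA, the E-box as CACGTG, the GC box as GGGCGG, the ETS motif as CCGGAAG, the YY1 motif as AAGATGGC and, by name only, a shortened CTCF core motif. The ETS letters stood in 33.3% of these windows, against 8.86% of all 32851 windows. In the 58 windows of the genes that could be tested for expression the share was 34.5%, against 20.5% of the 7571 windows of all tested genes. The E-box stood in 20% of the 75, against 7.15% of all windows, and in 15.5% of the 58, against 10.8% of windows of tested genes. The GC box was in 60% of the 75, against 35.7% of all windows, and in 62.1% of the 58, against 64.6% of windows of tested genes. The YY1 letters were in 10.7% of the 75, against 2.75% of all windows, and in 6.9% of the 58, against 5.1% of windows of tested genes. The TATA box was in 14.7% of the 75, against 13.6% of all windows, and in 13.8% of the 58, against 6.84% of windows of tested genes. The CTCF core was in 1 window of the 75, or 1.33%, against 2.43% of all windows, and in 1.72% of the 58, against 2.96% of windows of tested genes. A match describes letters only, and its absence says nothing about binding.

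The windows printed below belong to the genes that had an unadjusted limma p under 0.1 in the comparison of the hairpins and a single window, 3 genes of 7. Each reads 5′ to 3′ on the strand of its gene, and capitals mark matches to the motifs above. Gtf2f1 lies on the minus strand at chr17:57011239-57011538, Med25 on the minus strand at chr7:44892375-44892674, and Taf15 on the plus strand at chr11:83472858-83473157.
Gtf2f1: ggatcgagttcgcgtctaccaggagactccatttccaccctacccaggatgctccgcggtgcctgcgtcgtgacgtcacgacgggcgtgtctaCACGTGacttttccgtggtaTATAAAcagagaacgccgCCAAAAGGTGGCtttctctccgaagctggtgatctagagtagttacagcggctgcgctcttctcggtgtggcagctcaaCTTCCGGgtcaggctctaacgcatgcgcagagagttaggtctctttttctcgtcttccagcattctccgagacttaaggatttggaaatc
Med25: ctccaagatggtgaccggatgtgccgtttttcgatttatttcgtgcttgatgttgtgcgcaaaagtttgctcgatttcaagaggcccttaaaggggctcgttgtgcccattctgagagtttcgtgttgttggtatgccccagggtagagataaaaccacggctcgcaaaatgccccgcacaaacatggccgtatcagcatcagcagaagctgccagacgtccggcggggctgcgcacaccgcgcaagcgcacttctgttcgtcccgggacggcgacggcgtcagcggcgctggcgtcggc
Taf15: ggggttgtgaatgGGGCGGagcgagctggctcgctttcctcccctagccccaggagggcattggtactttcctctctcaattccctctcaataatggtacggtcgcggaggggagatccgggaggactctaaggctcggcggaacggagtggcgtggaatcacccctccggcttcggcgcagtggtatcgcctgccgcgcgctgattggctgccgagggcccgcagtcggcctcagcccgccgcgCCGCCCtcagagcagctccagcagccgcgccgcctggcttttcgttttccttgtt
The Gtf2f1 window holds the single CTCF match, with its first base at -119 from the annotated start, and also the E-box, TATA and ETS letters, at -157, -137 and -40. The Taf15 window holds the GC box at -237 and at -5 from its start. None of the 6 motifs was found in the Med25 window.

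Most of the machinery genes with a probe were measurable in Wehi-231 cells. Of the 70 genes, 54 had a probe above the background level in at least 3 arrays and were tested, among them 24 of 26 Mediator genes, 7 of 9 polymerase genes, 8 of 12 general factor genes and 15 of 23 TAFs. Each gene is given by its brightest probe. The levels of different probes cannot be set against each other on such arrays, so each level below is compared only between the groups. The 16 other genes had 19 probes with values between 6.25 and 6.71, and no probe exceeded the background level in more than 2 arrays. They were Med17 and Med29 of Mediator, Polr2c and Polr2m of polymerase II, Gtf2b, Gtf2a2, Gtf2a1l and Gtf2h5 of the general factors, and Taf1, Taf1b, Taf2, Taf4, Taf4b, Taf7l, Taf8 and Taf9b. Gtf2b, the single subunit of TFIIB, and Taf1, the largest TAF, act at very many promoters, so a dim probe is no measure of their absence. Polr2a, the catalytic largest subunit, has no probe named for it in the annotation used here and was not analysed. The same holds for Polr2b, Polr2i and Polr2k of the polymerase and for Gtf2h2 of TFIIH.

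The machinery genes did not pass the test between the hairpins. In limma over 7204 genes, 0 of the 54 had an adjusted p under 0.05, and 0% of all genes did. At an unadjusted p under 0.05 there were 3 of 54, or 5.56%, against 6.65% of all genes. These were Gtf2e2, higher (3.1% of all genes), and Med25 and Taf15, lower (3.55% of all genes). Gtf2e2 was no longer among such genes with either prior that follows intensity, with normexp, with array weights, or without the third shTFII-I, the first shCT or the third shCT array. The groups did not overlap in 6 of 54, or 11.1%, against 11.9% of all genes. Of these, 4 were higher, against 5.48% of all genes, and 2 lower, against 6.39%. Taf7, among the 4, passed the filter only through its shTFII-I arrays. With every array required above background the groups did not overlap in 5 of 50 genes, or 10%, against 11.8% of all genes. In the mean 26 genes were higher and 28 lower in shTFII-I cells, with a median log2 difference of -0.013, against 0.00035 over all genes. Differences ran from -0.67 for Med25 to 0.57 for Med10, so no gene was 2-fold apart. A log2 difference over 0.5 in size was seen in 6 of 54, or 11.1%, against 6.08% of all genes.

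The 95% intervals of the differences were wide. For 46 of 54 genes, or 85.2%, the whole interval lay inside 2-fold in either direction, and for 21, or 38.9%, inside 1.5-fold. Over all genes these shares were 88.5% and 50.6%. The 8 genes whose interval reached 2-fold were Med6, Med10, Med15, Med25, Polr2f, Polr2l, Gtf2f1 and Taf10. The median residual SD was 0.27 for these genes and 0.22 for all genes. Over all genes the median residual SD was 0.36 in the brightest of 4 equal bins of genes and 0.12 in the dimmest. Of the 54 genes, 20 lay in the brightest bin and 5 in the dimmest. The intervals use a prior that is constant over intensity, and their counts were not repeated with another. With a prior that follows intensity, the SE was 0.31 in place of 0.18 for Gtf2e2 and 0.32 in place of 0.18 for Polr2h. For Med15 it was 0.25 in place of 0.27, and for Polr2l 0.36 in place of 0.41.

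**Figure D1:**
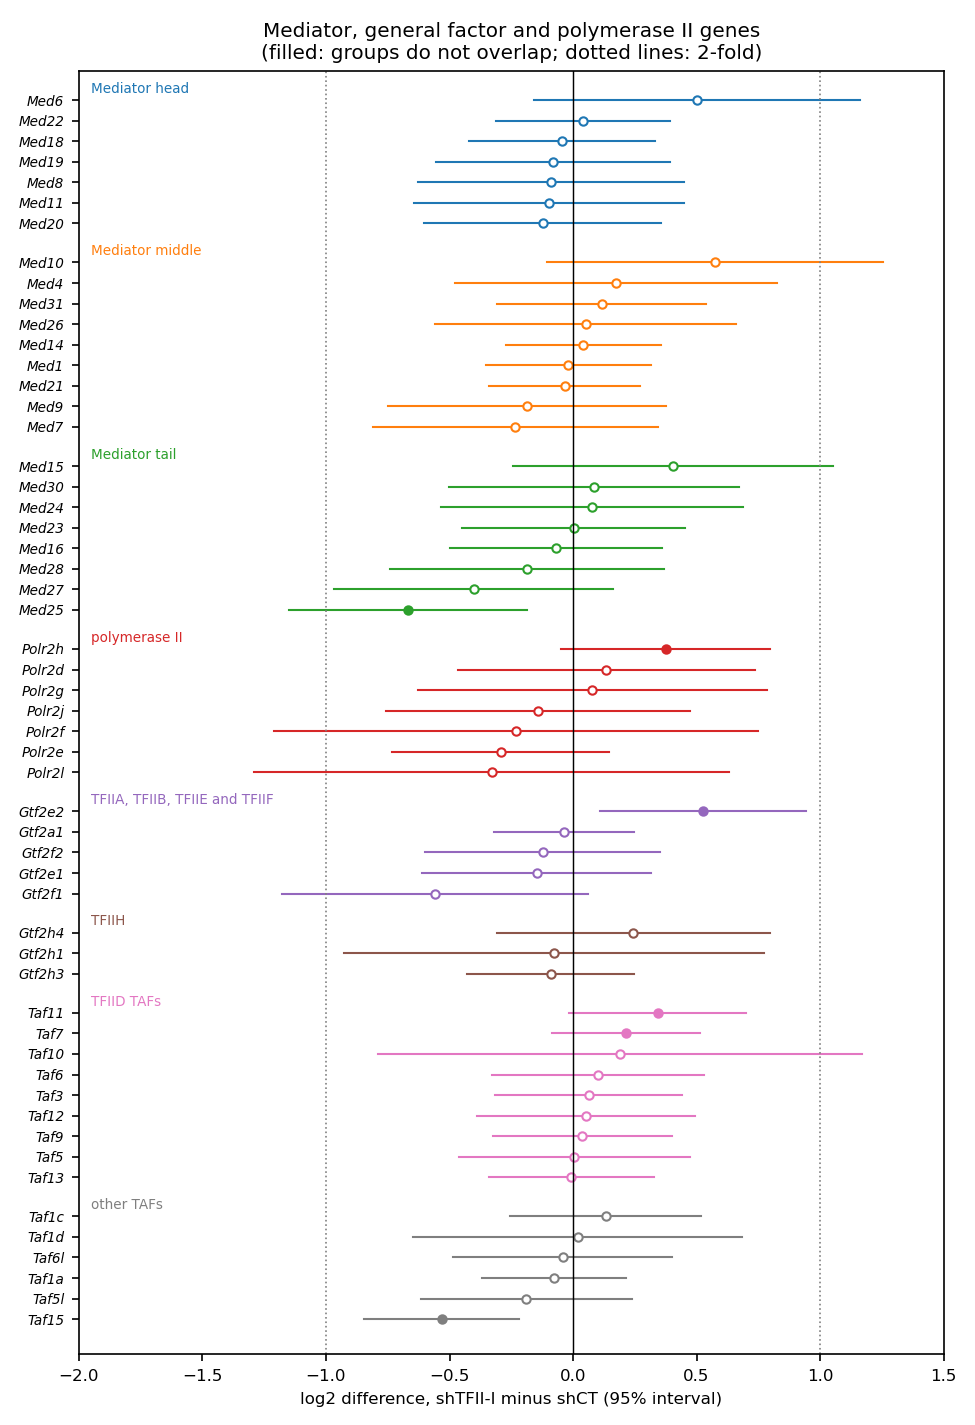
Log2 difference between shTFII-I and shCT arrays (x axis) for each of the 54 tested genes (rows, by complex), with 95% intervals from limma. Filled points are the 6 genes whose groups did not overlap, and dotted lines mark 2-fold. Taf7, among these 6, passed the filter only through its shTFII-I arrays, which fixes its direction. The points lie between -0.67 and 0.57, and most intervals cross 0.

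Mediator tail subunits meet activators, and Med25, which is known to bind activators such as the viral protein VP16, stood furthest from 0 of all the genes. Its log2 intensity was 8.19, 7.68 and 8.42 in shTFII-I, against 8.91, 8.69 and 8.68 in shCT arrays. All shTFII-I arrays were below all shCT arrays, with the second shTFII-I array the lowest. The difference was -0.67 ± 0.20 (log2, SE; limma adjusted p = 0.645 over all genes), or 1.59-fold lower. A second, dimmer Med25 probe differed by 0.0032, so the difference rests on 1 probe. Med15, a partner of lipid-regulating SREBP factors, was at 8.23, 7.87 and 7.36 in shTFII-I, against 7.42, 7.80 and 7.03 in shCT. The groups overlapped, and the difference of 0.40 ± 0.27 (log2, SE) stood beside 0.14 and -0.07 on its other probes. It was 0.20 without the first shTFII-I array, 0.21 without the third shCT array and 0.64 without the third shTFII-I array.

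The 8 measured tail genes were split evenly, 4 higher and 4 lower in the mean, with a median of -0.03. Med27 differed by -0.40 ± 0.24 and Med28 by -0.19 ± 0.24 (log2, SE), both of them subunits that join the tail to the head. Med23, a partner of the growth factor responsive protein ELK1, averaged 7.36 ± 0.23 in shTFII-I and 7.35 ± 0.28 in shCT (SD, n = 3 each). Its difference was 0.0031, with a 95% interval from -0.45 to 0.45. Med24, Med16 and Med30 differed by 0.08, -0.07 and 0.08, all less than their standard errors of 0.18 to 0.26.

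In the middle module, with the scaffold Med14 counted here, 5 of 9 genes were higher in the mean and the median was 0.04. Med10, a small subunit of the module, was at 9.21, 9.90 and 8.93 in shTFII-I, against 8.47, 9.18 and 8.65 in shCT. The second array was the highest of each group, and the groups overlapped. The difference was 0.57 ± 0.29 (log2, SE; limma adjusted p = 0.783), and 0.30 without the second shTFII-I array. Med7, which pairs with Med21, was at 8.56, 8.03 and 8.14 in shTFII-I, against 8.0, 8.64 and 8.80 in shCT, a difference of -0.23 ± 0.25. Without the third shCT array it was -0.07, and without the first shCT array -0.47.

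Med14 runs through the whole complex and ties its modules together. It was at 6.89, 7.10 and 6.97 in shTFII-I, against 6.80, 7.06 and 6.98 in shCT. The values of the groups interleave, and the difference was 0.04 ± 0.13 (log2, SE), with a 95% interval from -0.27 to 0.35. Its other probes differed by -0.12 and 0.05. Med1, the main contact of nuclear receptors, averaged 7.0 ± 0.21 in shTFII-I and 7.02 ± 0.01 in shCT (SD, n = 3 each), and all 3 of its probes differed by between -0.08 and -0.02. Med26, which hands the polymerase on to elongation factors, differed by 0.05 ± 0.26, Med21 by -0.03 ± 0.13 and Med4 by 0.17 ± 0.28 (log2, SE). Med31 and Med9, small subunits of the module, differed by 0.12 ± 0.18 and -0.19 ± 0.24.

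The head module touches the polymerase directly, and 5 of its 7 measured genes were lower in the mean, with a median of -0.08. Med6 was at 8.49, 9.38 and 9.05 in shTFII-I, against 8.41, 8.11 and 8.89 in shCT. The first shTFII-I array lay inside the range of shCT, and the difference was 0.50 ± 0.28 (log2, SE; limma adjusted p = 0.801). It was 0.30 without the second shTFII-I array and 0.32 without the second shCT array. Med20 was at 8.0, 8.62 and 8.21 in shTFII-I, against 8.67, 8.23 and 8.30 in shCT, with no separation of the groups and a difference of -0.12 ± 0.20. The other head genes, Med8, Med11, Med18, Med19 and Med22, differed by between -0.10 and 0.04 on their brightest probes. A second Med19 probe was at 6.92, 6.91 and 6.89 in shTFII-I, against 7.36, 7.27 and 7.08 in shCT. There the groups did not overlap, and the difference was -0.33 ± 0.12 (log2, SE). Second probes of Med8, Med11 and Med22 differed by 0.12, -0.08 and 0.13.

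Polymerase II subunits had a median difference of -0.14, with 3 of 7 higher in the mean, and no interval inside 1.5-fold. Polr2h, a subunit shared by polymerases I, II and III, was at 10.15, 10.26 and 10.75 in shTFII-I, against 10.01, 9.93 and 10.09 in shCT. All shTFII-I arrays were above all shCT arrays, and the third shTFII-I array stood highest. The difference was 0.37 ± 0.18 (log2, SE; limma adjusted p = 0.764), or 1.3-fold higher, but a second probe differed by -0.03, and without the third shTFII-I array the first differed by 0.19. Polr2l, another shared subunit, was at 11.70, 10.28 and 11.58 in shTFII-I, against 11.67, 11.87 and 11.00 in shCT. Its difference of -0.33 ± 0.41 came with a single low array, the second of shTFII-I, and without that array it was 0.12. The shared subunits Polr2e and Polr2f differed by -0.29 ± 0.19 and -0.23 ± 0.42 (log2, SE). Polr2d and Polr2g, which form the stalk where the transcript leaves the enzyme, differed by 0.14 ± 0.26 and 0.08 ± 0.30, and the 4 Polr2d probes ranged from -0.09 to 0.37. Polr2j, part of the assembly platform, differed by -0.14 ± 0.26.

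Among TFIIA, TFIIE and TFIIF, 1 of 5 measured genes was higher in the mean and 4 were lower, with a median of -0.12. Gtf2e2, the beta subunit of TFIIE, was at 9.76, 9.84 and 9.97 in shTFII-I, against 9.06, 9.65 and 9.28 in shCT. The groups did not overlap, and the difference was 0.53 ± 0.18 (log2, SE; limma adjusted p = 0.664), or 1.44-fold higher. Its partner Gtf2e1, the alpha subunit, averaged 9.04 ± 0.33 in shTFII-I and 9.19 ± 0.19 in shCT (SD, n = 3 each), a difference of -0.15 ± 0.20. Gtf2f1, the large subunit of TFIIF, was at 8.02, 8.0 and 7.42 in shTFII-I, against 8.86, 8.25 and 8.01 in shCT. Here the groups overlapped by 1 array, and the difference was -0.56 ± 0.26 (log2, SE; limma adjusted p = 0.761). It was -0.32 without the first shCT array and -0.36 without the third shTFII-I array. Gtf2f2, the small subunit of TFIIF, differed by -0.12 ± 0.20, and Gtf2a1, the large subunit of TFIIA, by -0.04 ± 0.12.

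The measured TFIIH genes of the Gtf2h series, which belong to its core, were Gtf2h1, Gtf2h3 and Gtf2h4. Gtf2h4 was at 8.39, 8.60 and 9.18 in shTFII-I, against 8.50, 8.72 and 8.22 in shCT, and Gtf2h3 at 9.15, 8.85 and 8.86 in shTFII-I, against 9.10, 9.13 and 8.90 in shCT. Groups overlapped in both, with differences of 0.24 ± 0.24 and -0.09 ± 0.14 (log2, SE). With 1 array left out the Gtf2h4 difference ran from 0.02, without the third shTFII-I array, to 0.41, without the first, and that of Gtf2h3 from -0.19 to -0.04. Gtf2h1 differed by -0.08 ± 0.36. Gtf2h1 and Gtf2h4 were highest in the third shTFII-I array and lowest in the third shCT array, while Gtf2h3 was not high in the third shTFII-I array. Over the 3 genes the median deviation from the gene mean was 0.58 in the third shTFII-I and -0.39 in the third shCT array, against -0.21 to 0.13 in the other 4.

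**Figure D2:**
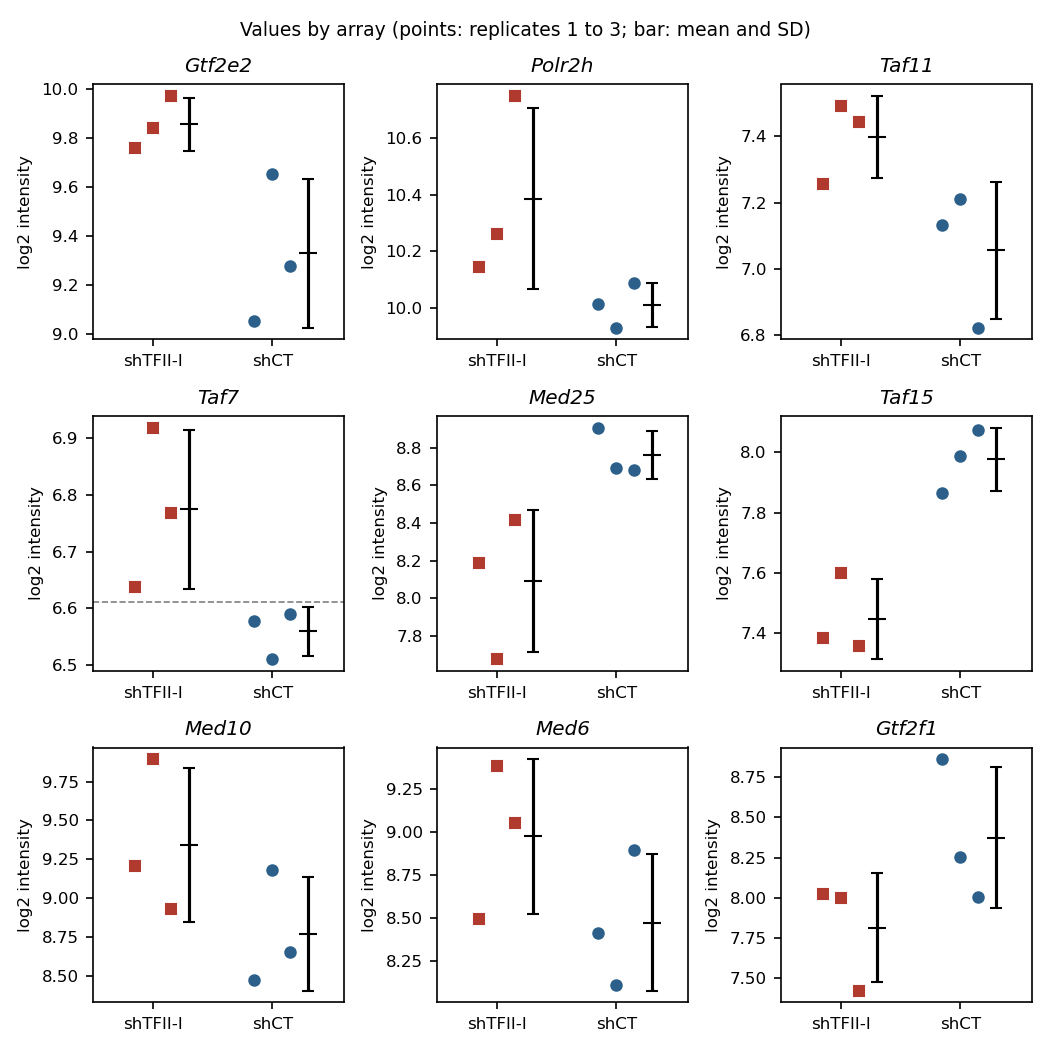
Log2 intensity on each array for the 6 genes whose groups did not overlap and, in the bottom row, Med10, Med6 and Gtf2f1 (squares shTFII-I, circles shCT, bars mean and SD, n = 3 each). The dashed line in the Taf7 panel is the background level of 6.61, and each panel has its own scale.

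TAFs of TFIID were higher in the mean in 8 of 9 measured genes, against 50.1% of all genes. The median difference was 0.06, and with the dimmest probe of each gene 4 were higher and 5 lower, while the mean of the probes gave 5 and 4. With 1 array left out, 5 to 7 of the 9 were higher. Of the 8, Taf7 passed the filter only through its shTFII-I arrays. With every array required above background 7 of 8 were higher, and without a filter 11 of 16. Taf11, a histone-fold protein, was at 7.26, 7.49 and 7.44 in shTFII-I, against 7.13, 7.21 and 6.82 in shCT. The groups did not overlap, and the difference was 0.34 ± 0.15 (log2, SE; limma adjusted p = 0.746), or 0.23 without the third shCT array. Taf13, with which Taf11 pairs, was at 7.02, 6.81 and 6.97 in shTFII-I, against 6.93, 7.12 and 6.77 in shCT, a difference of -0.0069 ± 0.14. The 2 differences were of unlike size, and the difference between them was not tested.

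Taf7, known to hold back the acetyltransferase activity of TAF1, was at 6.64, 6.92 and 6.77 in shTFII-I, against 6.58, 6.51 and 6.59 in shCT. All 3 shTFII-I values exceeded the background level and no shCT value did. The gene thus passed the filter only through the group where it was higher, which fixes the direction, so no fold or p is given for it. Taf10, which TFIID shares with the coactivator SAGA, differed by 0.19 ± 0.42, and Taf12, shared in the same way, by 0.05 ± 0.19 (log2, SE). The 4 Taf12 probes ranged from -0.06 to 0.05. Taf3, Taf5, Taf6 and Taf9 differed by 0.06, 0.0050, 0.10 and 0.04, all less than their standard errors.

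Taf15 had the smallest adjusted p of the 54 genes with the constant prior. It encodes an RNA-binding protein that was found with some TFIID complexes. Its log2 intensity was 7.38, 7.60 and 7.35 in shTFII-I, against 7.87, 7.99 and 8.08 in shCT. All shTFII-I arrays were below all shCT arrays. The difference was -0.53 ± 0.13 (log2, SE; limma adjusted p = 0.505), or 1.45-fold lower. Its other probes did not pass the filter. With a prior that follows intensity the SE was 0.23 in place of 0.13. Med25 then had the smallest adjusted p of the 54 genes, 0.628 in limma, against 0.645 for Taf15. Taf1a, Taf1c and Taf1d belong to SL1, the promoter factor of polymerase I, and differed by -0.08, 0.13 and 0.02. Taf1c was at 6.58, 6.98 and 6.66 in shTFII-I, against 6.69, 6.73 and 6.40 in shCT, close to background in both groups, and with 1 array left out its difference ran from 0.011, without the second shTFII-I array, to 0.21, without the first. Taf5l and Taf6l, the SAGA forms of TAF5 and TAF6, differed by -0.19 ± 0.18 and -0.04 ± 0.19.

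Probes of the same gene often had opposite signs. Several probes passed the filter for 18 of the 54 genes, and in 4 of them, Med1, Med11, Med19 and Med22, all probes had 1 sign, which is 22.2%, against 46.9% of the 2449 such genes over the whole table. The median spread between probes of a gene was 0.17 for these genes and 0.21 for the whole table. It was 0.67 for Med25 and 0.41 for Polr2h, with the brightest probe far from 0 and the other near it. The other 36 genes, Gtf2e2, Taf11 and Taf15 among them, rest on 1 probe above background.

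**Figure D3:**
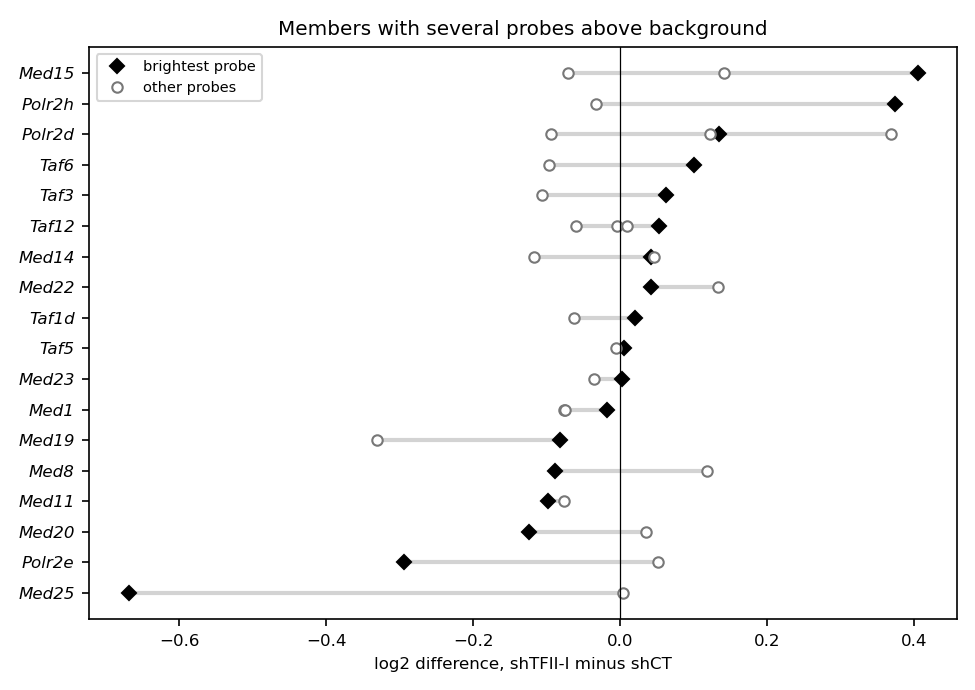
Log2 difference between shTFII-I and shCT (x axis) for every probe above background of the 18 genes with several such probes (rows). Diamonds are the brightest probe, used elsewhere in the text, and open circles the others; lines cross 0 in all but 4 rows.

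Single complexes varied between arrays of the same group. For each array, the median deviation of the 54 genes from their means was -0.04, -0.0099 and 0.02 in the shTFII-I arrays, against 0.05, 0.06 and -0.07 in the shCT arrays. The groups overlap in this measure, and the third shCT array stood lowest. For polymerase II the values were 0.03, -0.02 and 0.23 in shTFII-I, against 0.04, 0.04 and -0.28 in shCT, with the third array at the far end of each group. For the TAFs of TFIID they were 0.02, 0.27 and 0.03 in shTFII-I, against -0.09, 0.06 and -0.15 in shCT. Over all genes no array deviated by more than 0.012.

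**Figure D4:**
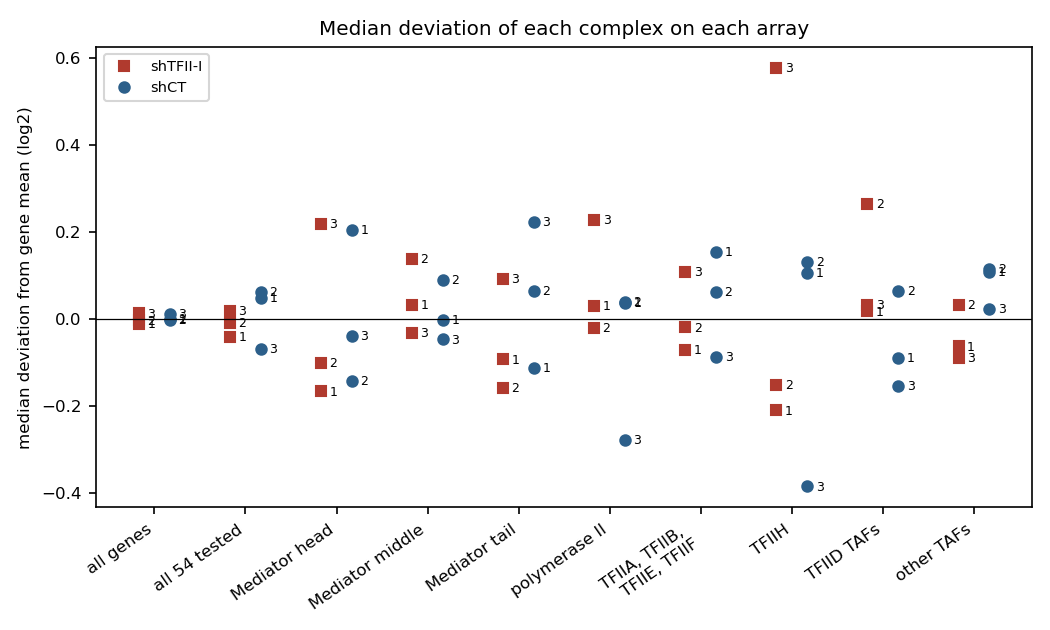
Median deviation from each gene's mean over the 6 arrays (y axis, log2) for all genes, all 54 tested genes and each complex, with shTFII-I (squares) left of shCT (circles) and replicate numbers beside the points. TFIIH, with 3 genes, spans from -0.39 to 0.58.

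Genes that work with this machinery were tested in the same limma fit, with 0 of 56 tested genes past an adjusted p of 0.05. TFIIH has further subunits outside the Gtf2h names, and 4 of 5 were tested, 1 higher and 3 lower in the mean. Ercc3, its promoter-opening helicase, was at 9.04, 8.82 and 9.02 in shTFII-I, against 10.10, 9.41 and 9.93 in shCT. The groups did not overlap, and the difference was -0.85 ± 0.20 (log2, SE; limma adjusted p = 0.457), or 1.8-fold lower, but a second probe differed by -0.03. Ccnh, the cyclin of the TFIIH kinase, differed by -0.39 ± 0.22. Tbp, the TATA-binding subunit of TFIID, averaged 8.08 in shTFII-I and 8.10 in shCT, with a difference of -0.02 ± 0.14. Its other probes differed by -0.08, 0.16 and 0.0082. Btaf1, which removes TBP from DNA, differed by 0.14 ± 0.22.

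Of 18 elongation factors 11 were higher in the mean, with a median of 0.07. Ccnt1, the cyclin of the elongation kinase, differed by 0.33 ± 0.16 on its brightest probe and by 0.21 ± 0.20 on a second. Aff4, the scaffold of the super elongation complex, averaged 6.83 in shTFII-I and 6.52 in shCT. Its shCT mean lay below the background level of 6.61. The shTFII-I arrays carried it past the filter, so no difference is given for it. Aff4 is nonetheless counted among the 11 higher elongation factors and in their median. Among factors that assemble or recycle polymerase II the median was -0.13 and 8 of 10 were lower in the mean. Rprd1b, which binds the polymerase tail, differed by -0.37 ± 0.16, and the tail phosphatase Ssu72 by -0.38 ± 0.34. Among subunits of polymerases I and III, 8 of 12 were lower in the mean and the median was -0.18. Polr3g, on the other side, differed by 0.75 ± 0.24 with groups apart. Polr3d was at 6.74, 6.51 and 6.60 in shTFII-I, against 6.97, 6.80 and 6.79 in shCT. The shCT arrays carried it past the filter, so no difference is given for it. Polr3d is nonetheless counted among the 8 of 12 that were lower and in their median. For SAGA the median was -0.17, and 9 of 10 tested genes were lower in the mean. That list leaves out the TAFs of SAGA given above, of which Taf10 and Taf12 were higher and Taf5l and Taf6l lower. Usp22, the deubiquitinase of SAGA, differed by -0.35 ± 0.15 on its brightest probe and by 0.11 on a second, and Supt7l by -0.28 ± 0.16. All these differences are log2 values with their SE, shTFII-I minus shCT. The medians of the lists stand beside 0.00035 for all genes, of which 50.1% were higher in the mean. The counts of these lists were not repeated with other probes or with an array left out.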

How the data were processed

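RNA of 6 Wehi-231 samples, 3 labelled shTFII-I and 3 labelled shCT, was labelled as biotinylated cRNA for Illumina arrays, per the labels' protocols. The value table that the authors deposited holds log2 intensities of 45281 probes. From the values, they had been quantile normalized between arrays, as sorted columns differ by at most 0.0012. Limma is named in the submitters' processing notes; the sources used here give neither its version and role nor any background correction. The 12 per-sample columns of a table of bead signals were not used, since no heading there matches a title.

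The background level of 6.61 is exceeded by 1% of a background made by mirroring the values below their mode, 6.45. A probe above it in at least 3 arrays passed, 12114 in all. Since values level off near that mode, differences of dim genes are compressed. Probes were named through the platform annotation: 34885 had 1 symbol, 18 several and 10378 none, and 34807 were matched by Entrez ID to GRCm38.p6 symbols. The brightest probe by mean stood for its gene, 7204 genes in all, with limma 3.58.1 in R 4.3.3 (lmFit, eBayes with constant prior variance, Benjamini-Hochberg over all genes, threshold 0.05). SEs are limma's moderated ones, from the fit over genes or, for other probes, over all probes past the filter. The code was checked on simulated normal values drawn with the residual SDs of this fit. That check is no measure of how well small differences are found here. With 3 arrays a group, their number limits the precision, and 95% intervals had a median half-width of 0.41 over all genes.

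Members and lists were chosen with earlier results of these data known. Members with an unadjusted p under 0.05 and the largest difference of either sign in each complex are given with every array, as are Med14 and Taf7, the last chosen after its values were seen. From each list of related genes up to 2 of smallest p are named. Alternatives covered the filter, the prior, normexp background correction with an offset of 16, array weights, the choice of probe, a block for the replicate number, and leaving out each array.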

Additional observations from a re-analysis of the deposited data

How the results depend on the processing

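The count of 0 genes of the machinery past an adjusted p of 0.05 held in all 10 other settings and with each of the 6 arrays left out, where the smallest adjusted p in limma of a gene described with every array was 0.379. Over all genes the count was 5 with a prior that follows intensity, 6 when that prior was also robust and 5 with normexp. At an unadjusted p under 0.05 stood 5 genes in place of 3 without a filter, or 7.14% of 70, against 5.31% of all genes. Taf7 and Taf11 were added there, and their standard errors were smaller in that fit. With the replicate block there were 6, or 11.1%, against 7.05% of all genes. With 1 array left out they ran from 2 to 6. There were 2 without shCT replicate 1, or 3.7%, against 4.87% of all genes. Without shTFII-I replicate 1 there were 5, or 9.26%, against 7.44%, and without replicate 3 there were 6, or 11.1%, against 7.48%. Genes with groups apart ran from 8 to 12, as fewer arrays overlap less, with 12 without shTFII-I replicate 1 and 11 without replicate 3, or 22.2% and 20.4%, against 24.2% and 22.9% of all genes. The median difference ran from -0.045 to 0.015 with 1 array left out. Deviations of same-numbered arrays had correlations of -0.014, 0.0031 and 0.10 over all genes, and not every array correlated best with its own number. With the replicate block the SE of Med10 was 0.16 in place of 0.29, and that of Med20 0.23 in place of 0.20. The labels do not say whether equal numbers mark pairs, and this was not tested.

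Of 286 values of 18 genes under the alternatives, 272 kept their sign. This count says little about how firm the signs are. The filter, the prior and the replicate block leave the difference of a given probe unchanged. Another choice of probe changes nothing for a gene with 1 probe past the filter. Taf7, whose direction the filter fixes, is also among the 18. With the dimmest probe past the filter Med25 was 0.0032, Med15 -0.072, Med20 0.035, Polr2h -0.034 and Med14 -0.12. Med14 was also -0.020 with array weights and -0.0098 with the mean of the probes. With 1 array left out Med14 ran from -0.033 to 0.096, Med20 from -0.30 to 0.016, Polr2l from -0.59 to 0.12 and Taf13 from -0.091 to 0.083. Apart from those that rest on another probe, the cause of these changes was not tested. With so few arrays, 95% intervals of the 54 genes had a median half-width of 0.47 on the log2 scale, 0.54 for Mediator and 0.61 for polymerase II.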
